A study of Homo sapiens with 18 samples.

Results

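The epithelial keratins KRT7, KRT8, KRT18, KRT19, KRT20, KRT23 and KRT80 were followed under riboflavin depletion in Caco-2, a cell line from a human colon carcinoma that can differentiate towards enterocytes. Cells make their flavin cofactors, FMN and FAD, from riboflavin (vitamin B2). Every probe set whose platform gene symbol was exactly 1 of these 7 names was taken, which gave 11 of the 54613 non-control probe sets and 7 of the 19775 genes that such probe sets name. Cells kept in riboflavin-free medium ("ribo deficient" in the labels) were collected at 24, 48 and 72 h and are called depleted below, and untreated cells of the same line collected at the same times are called control. These 6 groups held 3 Affymetrix arrays each, 18 in all, and all media carried foetal calf serum. The labels mention dialysed serum without saying for which cultures. They also leave unsaid whether replicate arrays came from different cultures. The p-values therefore cover the spread among these arrays, which may be technical.

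Keratins are the intermediate filaments of epithelial cells. A type I keratin (KRT18, KRT19, KRT20 and KRT23 here) pairs with a type II keratin (KRT7, KRT8 and KRT80 here) to form the filament, and the filaments join desmosomes between cells and hemidesmosomes at the basement membrane. KRT8 and KRT18 are the primary pair of simple epithelia such as the gut lining, KRT19 is added to them there, and KRT20 is known as a marker of differentiated intestinal cells. In the RefSeq annotation (GRCh38.p14) all 7 genes lie in the keratin clusters of chromosomes 12 (the type II genes and KRT18) and 17 (KRT19, KRT20 and KRT23). KRT8 and KRT18 are neighbours whose annotated spans overlap, as KRT7 and KRT80 are neighbours and KRT20 and KRT23.

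The values are MAS5 signals, which summarise the probes of a probe set on a linear scale, and tests were made on log2(signal + 16). Signals of different probe sets are not on one scale, so each is compared only with itself. The arrays fell into 3 sets of 6, each with 1 array of every group, and set 2 stood apart with array medians of 25.7 to 31.3, against 18.4 to 23.3 in the other sets, and highest signals of 27380 to 31410, against 6905 to 8575. All 7 markers of simple epithelium were above the filter on low signals, with a median EPCAM signal of 5107 in depleted and 5217 in control cells and a median CDH1 signal of 3843 in depleted and 3757 in control cells. Of 6 squamous epithelium markers on the array only KRT10 was above it, while 4 of 5 leukocyte and 6 of 9 fibroblast markers were above it. Among these were LYZ (median 241.6 in depleted and 154.2 in control cells), CD79A (117.4 and 89.7), VIM (236.5 and 226.8), COL1A1 (233.7 and 294.8) and COL3A1 (153.8 and 138.3). The leukocyte marker PTPRC (6.9 in depleted and 3.9 in control cells) and the fibroblast marker COL1A2 (6.9 and 14.3) were below it. The filter kept 27307 of 54613 non-control probe sets. By the brightest probe set of each gene it kept 12319 of 19775 genes. Being above the filter therefore does not show that a marker is expressed.

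None of the 6 keratin probe sets above the filter passed the test between depleted and control cells, and of the 5 below it KRT23 passed in 1 added setting described further on. The filter kept 6 of the 11 keratin probe sets, covering KRT7, KRT8, KRT18, KRT19 (through a pair of probe sets) and KRT20. Averaged over the 3 times, 0 of these 6 passed limma at an adjusted p of 0.05, while 4.26% of the 27307 probe sets tested did. An unadjusted p under 0.05 was found for 0 of the 6 and for 4801 of the 27307. With the set of 6 arrays as a block, which compares arrays within a set, 0 of 6 passed again and 15% of all probe sets did. The 6 estimates lay between -0.15 and 0.18 on the log2 scale with a median of -0.11, and the median of all probe sets tested was 0.02. In bulk RNA of this kind, a change in the share of cells that express a gene and a change in its RNA per cell cannot be told apart.

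At single times 0 of 6 passed as well, at 24 h (0.216% of all probe sets passed), at 48 h (0.0806%) and at 72 h (4.16%). The block called 2.37%, 0.692% and 13.3% of all probe sets at these times and 0 of the 6. The counts with an unadjusted p under 0.05 were 1, 0 and 0 of 6 at 24, 48 and 72 h, with and without the block, and the 1 was KRT20. With so few arrays the intervals were wide, and the 95% interval of the averaged KRT8 difference ran from -0.43 to 0.15, so a decrease to 0.744-fold or a rise to 1.11-fold was within it. With the block this interval was narrower, from -0.34 to 0.06 (0.791-fold to 1.04-fold).

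**Figure D1:**
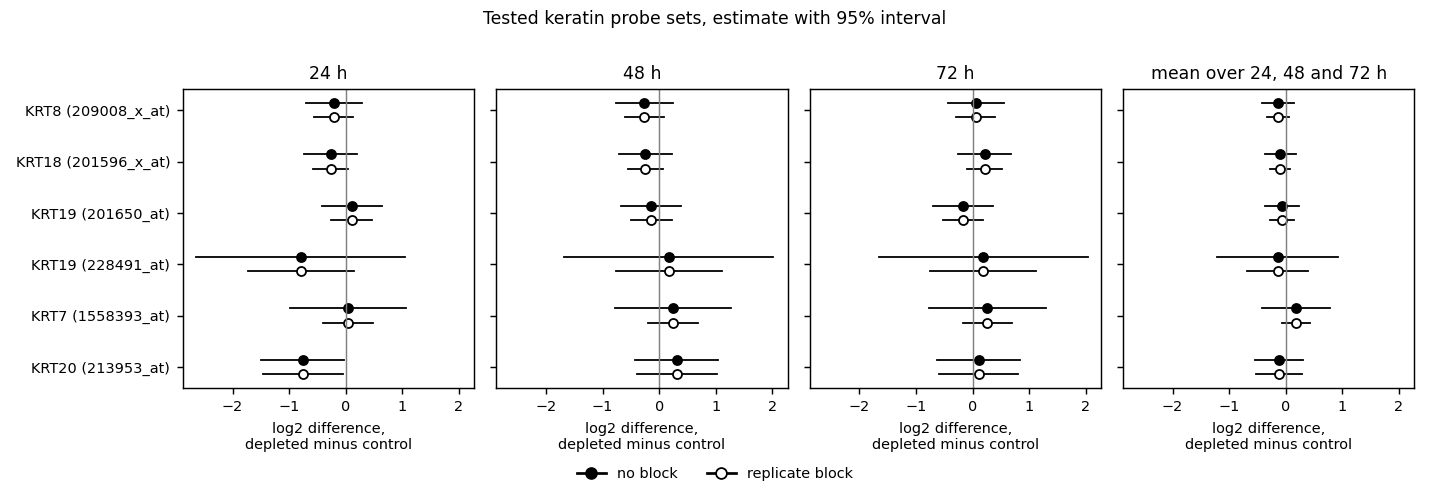
Log2 difference of depleted minus control cells (x axis) for the 6 tested keratin probe sets (rows) at 24, 48 and 72 h and averaged. Points are limma estimates and lines their 95% intervals, filled without and open with the replicate block. All intervals cross 0 except those of KRT20 at 24 h, whose upper ends are -0.03 and -0.06, and none passed after adjustment.

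KRT8, the type II keratin of simple epithelia, had signals of 2457.7, 2319.7 and 3139.6 in depleted cells at 24 h, against 2828.3, 2492.3 and 3961 in control cells (sets 1, 2 and 3). At 48 h these were 2768.7, 3152.5 and 3584 in depleted cells and 3566.9, 3080.1 and 4921.1 in control cells. At 72 h they were 3168.6, 3683.9 and 4145.6 in depleted cells and 2993.9, 4017.7 and 3567.2 in control cells. The groups overlapped at each time. Depleted arrays lay below the control array of their own set in 3 of 3 sets at 24 h, 2 of 3 at 48 h and 1 of 3 at 72 h. The log2 differences were -0.21 at 24 h, -0.26 at 48 h and 0.06 at 72 h (SE 0.24 each), with adjusted p = 0.904, 0.886 and 0.953 (limma).

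KRT18, the type I partner of KRT8, had signals of 5215, 5072.4 and 4940.9 in depleted cells at 24 h, against 5824.2, 6412.4 and 6133.9 in control cells. At 48 h they were 5405.7, 7043.4 and 5533.7 in depleted cells, against 5847.5, 8978.8 and 6692.6 in control cells. At 72 h the order turned, with 5979.1, 8710.5 and 5980.7 in depleted cells, against 5185.2, 7460.8 and 5178.7 in control cells. Within sets, depleted over control was 0.792 to 0.896 at 24 h, 0.785 to 0.925 at 48 h and 1.15 to 1.17 at 72 h, so KRT18 was lower in 3 of 3 sets at the first 2 times and higher in 3 of 3 at 72 h. The log2 differences were -0.27, -0.25 and 0.21 (SE 0.22 each), with adjusted p = 0.842, 0.888 and 0.737 (limma). At 24 h the depleted and control arrays of KRT18 did not overlap, which held for 12.8% of all tested probe sets and for no other of the 6. At 48 and 72 h all 6 overlapped, while 11.8% and 23.1% of all tested probe sets did not.

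This turn in sign did not pass a test of the difference between times. For KRT18 the effect at 72 h minus that at 24 h was 0.48 (SE 0.32, 95% interval -0.19 to 1.15, adjusted p = 0.679, limma). With the block it was 0.48 (SE 0.21, adjusted p = 0.216). Opposite signs of this kind, in all 3 sets at 24 and 48 h against all 3 sets at 72 h, occurred in 2.37% of all tested probe sets; the pattern was chosen after the values of KRT18 had been seen. Of the 6 tested keratin probe sets 0 passed for this change (0.645% of all did without the block and 4.58% with it), with an unadjusted p under 0.05 in 0 without and 1 with the block. Over all 27307 probe sets 2851 without and 5366 with the block had such a p. In the F-test over both changes 0 of 6 passed (0.311% and 3.49% of all), and 0 had an unadjusted p under 0.05, against 2299 and 5148 of all. For the effect at 48 h minus 24 h none of the 27307 probe sets passed (0%), with 854 under an unadjusted p of 0.05 and 2214 with the block. Among these was KRT20.

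**Figure D2:**
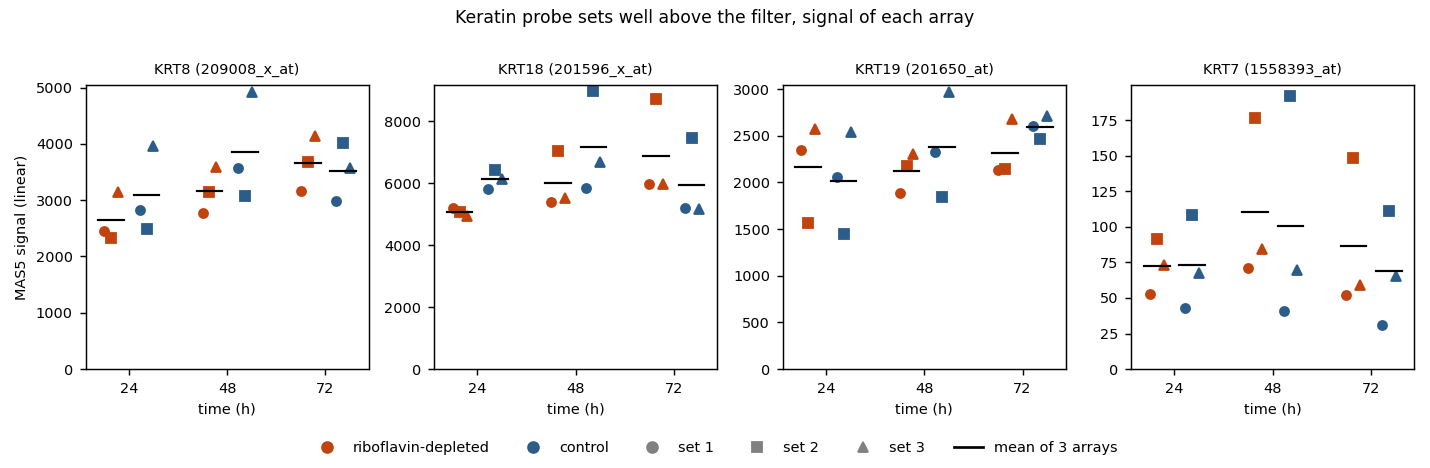
MAS5 signal (y axis, linear, from 0) of each array at 24, 48 and 72 h for KRT8, KRT18, KRT19 and KRT7, with depleted cells left of control cells at each time. Marker shapes give the set and black bars the mean of 3 arrays. KRT18 means were 5076 in depleted and 6124 in control cells at 24 h and 6890 in depleted and 5942 in control cells at 72 h, and the square markers of set 2 lie highest for KRT7.

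In depleted cells KRT8 and KRT18 had their highest means at 72 h, but neither differed from 24 h past the threshold. KRT8 averaged 2639 ± 439, 3168 ± 408 and 3666 ± 489 in depleted cells at 24, 48 and 72 h and 3094 ± 770, 3856 ± 954 and 3526 ± 513 in control cells (SD, n = 3). KRT18 averaged 5076 ± 137, 5994 ± 911 and 6890 ± 1577 in depleted cells and 6124 ± 294, 7173 ± 1620 and 5942 ± 1316 in control cells (SD, n = 3). Both were higher at each later time in 3 of 3 sets of depleted cells, an order that 2% of all tested probe sets showed. In control cells, where 1.54% of all showed it, the order held in 1 of 3 sets for KRT8 and 0 of 3 for KRT18. At 72 h against 24 h in depleted cells the log2 difference was 0.48 (SE 0.24, adjusted p = 0.372) for KRT8 and 0.42 (SE 0.22, adjusted p = 0.42) for KRT18. The block gave adjusted p = 0.0771 and 0.0875 (limma). In this comparison 0 of 6 keratin probe sets passed, against 2.07% of all without the block and 10.3% with it, and with the block 2 of 6 had an unadjusted p under 0.05, against 0 without it. In control cells 0 of 6 passed (0.117% of all, and 1.22% with the block), with 0 and 2 under an unadjusted p of 0.05.

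The probe sets of KRT8 and KRT18 carry the suffix with which the platform marks probes that can match other sequences. RefSeq lists 52 pseudogenes named after KRT8 and 68 named after KRT18, so part of either signal can come from related transcripts. Whether any of it did was not tested. For KRT19 there are 5 such pseudogenes and for the other members 0. No probe set on the array paired a member with a second gene symbol in the annotation.

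KRT19, a type I keratin that lacks most of the tail domain, had signals of 2345.3, 1562.2 and 2574.9 in depleted cells at 24 h, against 2056.6, 1452.3 and 2535.5 in control cells, through its brighter probe set. It was 1882.4, 2175.5 and 2303.5 in depleted cells at 48 h, against 2325.4, 1841.7 and 2970.7 in control cells. At 72 h it was 2130.6, 2147.1 and 2677 in depleted cells, against 2601.6, 2464 and 2712.4 in control cells. The groups overlapped at all 3 times, with depleted arrays above the control of their set in 3 of 3 sets at 24 h, 1 of 3 at 48 h and 0 of 3 at 72 h. The differences were 0.10, -0.14 and -0.17 on the log2 scale (SE 0.25 each), and the average was -0.07 (95% interval -0.37 to 0.23, adjusted p = 0.877, limma). At 72 h against 24 h KRT19 differed by 0.12 in depleted and 0.40 in control cells (SE 0.25, adjusted p = 0.899 and 0.887).

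In the brighter KRT19 probe set 49.3% of the spread lay between sets and 1.67% between media. The second KRT19 probe set had 69.9% and 0.452%, with another order of the sets. Its signal ran from 0.9 to 104.2 in depleted and from 0.9 to 141.9 in control cells. In set 2 it was 30.4 to 141.9, against 0.9 to 44.2 in set 1 and 0.9 to 20.8 in set 3. Its set 2 mean lay 1.89 above the mean of the other sets on the log2 scale, while the brighter KRT19 probe set lay 0.33 below in the same arrays (-0.33). Its averaged difference was -0.15 with a 95% interval from -1.21 to 0.92, and from -0.69 to 0.40 with the block.

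KRT7, a type II keratin of glandular and ductal epithelia that is usually absent from colon, was above the filter through 1 of its 4 probe sets. That probe set gave 53, 91.5 and 73.1 in depleted cells at 24 h, against 43.2, 108.1 and 67.5 in control cells. At 48 h it gave 71.3, 176.4 and 84.3 in depleted cells, against 40.9, 191.9 and 69.7 in control cells, and at 72 h 52.2, 148.7 and 59.1 in depleted cells, against 31.3, 111.1 and 65.2 in control cells. Set 2 held the highest value in all 6 groups, and 78.7% of the spread of this probe set over the 18 arrays lay between sets. The averaged difference was 0.18 (SE 0.28, adjusted p = 0.818), with 6 of 9 within-set pairs higher in depleted cells. Its other probe sets ran from 0.8 to 37.6 in depleted and from 0.4 to 48.2 in control cells and were below the filter, so KRT7 rests on 1 probe set that the others do not match. In the RefSeq annotation the span of KRT7 overlaps those of KRT7-AS, KRT87P and TMT1AP1. Which of these transcripts the brighter probe set reads was not tested.

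KRT20 stood just above the filter, with a mean of 5.22 against the limit of 5.15 on the log2 scale, a signal of 19.6. It gave 18.8, 2.6 and 17.5 in depleted cells at 24 h, against 44.8, 38.8 and 15.8 in control cells. At 48 h it gave 22.7, 51.2 and 19.7 in depleted cells, against 15.2, 28.5 and 19.1 in control cells, and at 72 h 31.3, 23.2 and 9.7 in depleted cells, against 9.7, 30.9 and 15.7 in control cells. The groups overlapped at each time, and on 10 of 18 arrays KRT20 was below the median signal of the array. The difference at 24 h was -0.76 (SE 0.35, 95% interval -1.50 to -0.03, unadjusted p = 0.0428), which did not pass after adjustment (adjusted p = 0.573, and 0.241 with the block, limma). At 48 and 72 h the differences were 0.31 and 0.11. In array set 3 KRT20 was 17.5 in depleted and 15.8 in control cells at 24 h, so the gap at 24 h came from sets 1 and 2.

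KRT23 and KRT80 were below the filter and were not tested with the other probe sets. KRT23, a type I keratin, gave 8.1, 6.1 and 16.3 in depleted cells at 24 h, against 3.3, 3.6 and 19.4 in control cells. At 48 h it gave 24.8, 38.1 and 25.6 in depleted cells, against 3.3, 14.3 and 15.9 in control cells, and at 72 h 15.2, 9.6 and 15.1 in depleted cells, against 1.9, 0.9 and 8.6 in control cells. KRT23 was higher in depleted cells in 8 of 9 within-set pairs, and the groups did not overlap at 48 and 72 h. Of all non-control probe sets 6.38% were higher in at least 8 of 9 pairs, 10.7% did not overlap at 48 h and 16.5% did not at 72 h.

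When all 54613 non-control probe sets were tested, the averaged KRT23 difference was 0.49 (SE 0.16, 95% interval 0.15 to 0.83) and did not pass (unadjusted p = 0.00711, adjusted p = 0.179, 1.43% of all passed, limma). With the block as well, an alternative added after the values had been seen, it passed narrowly (SE 0.13, adjusted p = 0.0488, 4.55% of all passed). At single times KRT23 did not pass with the block (adjusted p = 0.9 at 24 h, 0.261 at 48 h and 0.201 at 72 h, limma), where 0.375%, 0.117% and 4.16% of all passed. It was below the array median on 15 of 18 arrays, and the 3 above it were the depleted arrays at 48 h. Adding 16 to each signal makes a ratio of signals smaller at this level, and the fold itself was not determined.

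KRT80, a type II keratin that joins cell junctions and is known from several epithelia, gave 2.5, 8.7 and 1.7 in depleted cells at 24 h, against 4.4, 25.4 and 13 in control cells. At 48 h it gave 3.2, 6.7 and 3.8 in depleted cells, against 10.7, 1.7 and 2.7 in control cells, and at 72 h 4, 21.6 and 5.4 in depleted cells, against 3.4, 3.3 and 3.1 in control cells. It was below the array median on all 18 arrays, in depleted cells lower in 3 of 3 sets at 24 h and higher in 2 of 3 sets at 48 h and 3 of 3 at 72 h. With no filter the effect at 72 h minus that at 24 h was 0.92 (SE 0.40) and did not pass (adjusted p = 0.593, and 0.286 with the block, limma). Its averaged difference with no filter was -0.05 (adjusted p = 0.96). KRT23, KRT80 and the 3 dim KRT7 probe sets account for the 5 of 11 that the filter removed, with mean values from 4.34 to 5.09 on the log2 scale.

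**Figure D3:**
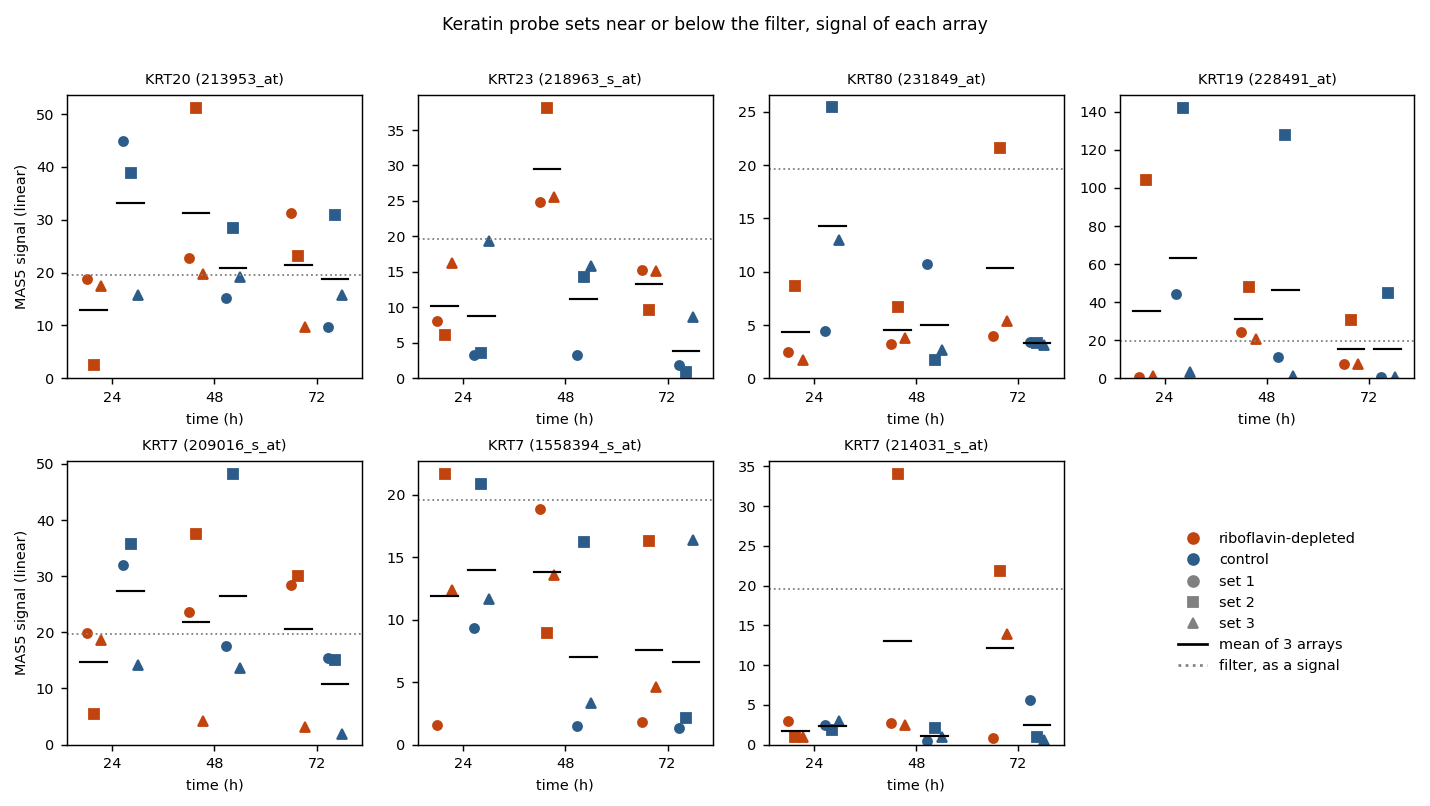
MAS5 signal (y axis, linear, from 0) of each array for the 7 keratin probe sets near or below the filter, with depleted cells left of control cells at 24, 48 and 72 h. The dotted line is the filter expressed as a signal, 19.6, black bars are means of 3 arrays and marker shapes give the set. The KRT23 arrays of depleted cells at 48 h lie between 24.8 and 38.1, above the control arrays of that time at 3.3 to 15.9.

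For most keratin probe sets the array set held more of the spread than the medium did. There were more sets than media, so noise alone would on average give the set the larger share. Of the total sum of squares of KRT8 over the 18 arrays, 36.8% lay between sets, 29.1% between times and 6.23% between media. KRT18 had 42.6% between sets, 4.15% between media and 19.9% in the medium by time term. Over the 6 tested probe sets the share of the set ran from 13.2 to 78.7% and that of the medium from 0.452 to 6.23%. The medium by time term, counted apart from the medium, ran from 0.794 to 26.8%. The medians over all tested probe sets were 27.7% for the set and 5.18% for the medium. The medium held more than the set for 2 of the 11, KRT23 with 28.6% between media and 15.2% between sets and a dim KRT7 probe set with 16.8% and 13.1%. The medium by time term alone held more than the set for KRT20 (26.8% against 13.2%) and KRT80 (29.0% against 19.4%). It did so for no other of the 11.

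**Figure D4:**
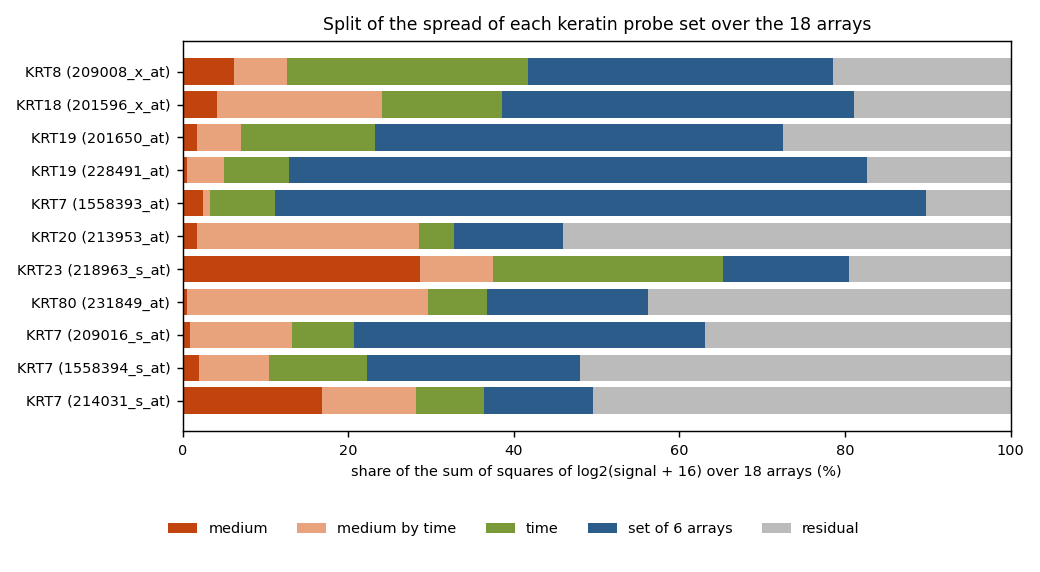
Share of the sum of squares of log2(signal + 16) over 18 arrays (x axis, percent) that lay between media, in medium by time, between times, between sets and in the residual, for the 11 keratin probe sets (rows). The set holds 78.7% for the brighter KRT7 probe set and 69.9% for the dimmer KRT19 probe set, and the medium holds 28.6% for KRT23.

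The genes whose pattern over the 18 arrays was most like that of each keratin, after the mean of each set had been taken away, were picked by the highest Pearson r. For KRT8 these were ID2, an inhibitor of basic helix-loop-helix factors (r = 0.914), and the splicing factor PUF60 (r = 0.9). For KRT18 they were the ribosome biogenesis factors WDR74 (r = 0.882) and PDCD11 (r = 0.873). For the brighter KRT19 probe set they were AHCY, S-adenosylhomocysteine hydrolase (r = 0.89), and the pseudouridine synthase family member TRUB2 (r = 0.89). For KRT7 they were ZNF316 and TAF5L, for KRT20 ZNF843 and ADCY6, for KRT23 ZNF160 and RBM34 and for KRT80 CHST1 and SMU1 (r from 0.734 to 0.837). In the averaged effect these genes had adjusted p from 0.104 to 0.999 (limma), so none passed. Among the keratins r was 0.761 between KRT8 and KRT18, 0.711 between KRT8 and KRT19 and 0.804 between KRT7 and KRT23, in 18 arrays that share set, medium and time. These are descriptions, since the highest of many coefficients is large by selection.

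Of 11 measured desmosome and filament linker genes, 2 rose in the averaged effect and 0 fell (4.64% of 12319 genes passed, limma), and with the block 3 rose and 1 fell (17.2% of genes passed). This list too was chosen with earlier results of these data known, so its counts are descriptions. PPL, the linker periplakin, gave 443.5, 314.1 and 484.9 in depleted cells at 24 h, against 275.8, 214.7 and 218.1 in control cells, 262.5, 370.8 and 425 in depleted cells at 48 h, against 275.8, 305.2 and 328.4 in control cells, and 645.5, 572.1 and 830.9 in depleted cells at 72 h, against 311.8, 372.5 and 395.5 in control cells. The groups overlapped at 48 h (difference 0.19, adjusted p = 0.934) and not at 24 and 72 h, where 12.8% and 23.1% of all tested probe sets did not overlap. PPL rose by 0.61 on average (SE 0.13, adjusted p = 0.0149). PERP, a desmosomal membrane protein and p53 target, rose by 0.42 (SE 0.11, adjusted p = 0.0358), with arrays at 3340.3 to 4967.3 in depleted and 2837.9 to 3494.4 in control cells. The PERP call was lost in 14 of 18 fits that left out 1 array, and that of PPL in none of them. With the block PLEC, the linker plectin, rose by 0.64 (adjusted p = 0.0486, 0.0538 with 75th percentile centring as well, and 0.531 without the block). PKP2, the desmosomal plaque protein plakophilin, fell by 0.34 with the block (adjusted p = 0.00882, and 0.0879 without it). With a pseudocount of 64 PKP2 also passed without the block (adjusted p = 0.0312, limma). The median of the list was 0.08, against 0.00 over all genes.

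The other lists around the filament had no call without the block, where 4.64% of all genes passed. With the block 17.2% of all genes passed. Of 4 hemidesmosome genes 0 passed, and with the block 2 rose, DST, a plakin linker (log2 0.26, adjusted p = 0.0433), and ITGA6, an integrin subunit (0.46, adjusted p = 0.0155). DST differed by 0.63, 0.43 and -0.29 at 24, 48 and 72 h, and this change from 24 to 72 h passed with the block (adjusted p = 0.0174, and 0.126 without it). So did 4.58% of all tested probe sets. Among genes named below, SI (adjusted p = 0.0202), FABP1 (0.0407) and ELF3 (0.0453) passed for this change with the block. Without it they did not (0.174, 0.611 and 0.4, limma). Of 9 keratin-binding proteins 0 passed, and with the block EPPK1, the plakin epiplakin, rose (0.51, adjusted p = 0.0119) and FBF1, a keratin-binding protein of centrosomes and junctions, fell (-0.35, adjusted p = 0.0359). Of 8 other intermediate filament genes 0 passed, and with the block lamin LMNB2 fell (-0.41, adjusted p = 0.0283). Without the block the unadjusted p was under 0.05 for DST, ITGA6, FBF1 and LMNB2 among these named genes. EPPK1 and ITGA6 had signals in set 2 that were 385.5 to 747.5 and 378.6 to 897.8, above those of the same group in the other sets. Of the other keratins, 37 genes on the array, 4 were measured (KRT9, KRT10, KRT38 and KRT74), 0 passed with or without the block, and their averaged differences were -0.15 to 0.18.

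Of 8 measured epithelial transcription factors 3 rose and 0 fell, with and without the block. Beside the counts in this paragraph, 4.64% of all genes passed without the block and 17.2% with it. The lists were chosen with earlier results of these data known, so a count above these shares is no evidence for a list. KLF4, a factor of differentiating gut epithelium, rose by 0.88 (SE 0.12, adjusted p = 0.000738), ELF3, an epithelial ETS factor, by 0.64 (SE 0.15, adjusted p = 0.0201) and KLF5, a factor of proliferating crypt cells, by 0.74 (SE 0.20, adjusted p = 0.0472, a call lost in 15 of 18 fits that left out 1 array). The list's median was 0.23. KLF5 gave 2346.3, 1415.5 and 1671.1 in depleted cells at 72 h, against 914.4, 464.4 and 796.7 in control cells, which did not overlap (nor did 23.1% of all tested probe sets). It overlapped at 24 h (776.8 to 1127.3 in depleted and 533.7 to 868.7 in control cells) and at 48 h (600.4 to 1139.1 and 455.6 to 1012). Of 8 measured enterocyte markers 2 fell, SI, sucrase-isomaltase (log2 -0.92, SE 0.14, adjusted p = 0.00165), and the fatty acid binding protein FABP1 (-1.36, SE 0.34, adjusted p = 0.0293, lost in 8 of 18 such fits). The summed signal of the enterocyte list, in which bright probe sets weigh most, was 2193 to 3230 in depleted and 3071 to 3878 in control cells at 24 h and 2709 to 4015 in depleted and 2478 to 4349 in control cells at 48 h. At 72 h it was 1878 to 2804 in depleted and 3699 to 4988 in control cells, and only at this time did the sums of this list not overlap. The leukocyte sum also did not overlap and was higher in depleted cells at 48 h (354.4 to 423.7 against 226.7 to 336.4). The same held at 72 h (382.8 to 421.8 against 295.5 to 313.2). The leukocyte genes did not move together. At 72 h LYZ differed by 0.76, CD79A by -0.12, CD3E by -0.07 and ITGAM by 0.09 (log2). At 48 h they differed by 0.34, 0.94, 0.69 and -0.39. The fibroblast sum was lower without overlap at 48 h (635.1 to 789.4 against 806.4 to 853.3). No background share is given for such sums. The part of these marker genes in the keratin values was not tested. Of 6 fibroblast and 4 leukocyte genes measured, 0 passed without the block. With the block COL1A1 fell (-0.61, adjusted p = 0.0223), while LUM (0.35, adjusted p = 0.0308), the lysozyme gene LYZ (0.39, adjusted p = 0.0157) and the epithelial tight junction gene CLDN4 (0.69, adjusted p = 0.00366) rose. KRT20, the keratin of differentiated intestinal cells, overlapped between the media at 72 h, where 23.1% of all tested probe sets did not. KRT20 stood just above the filter, so its overlap does not show whether it followed SI and FABP1.

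**Figure D5:**
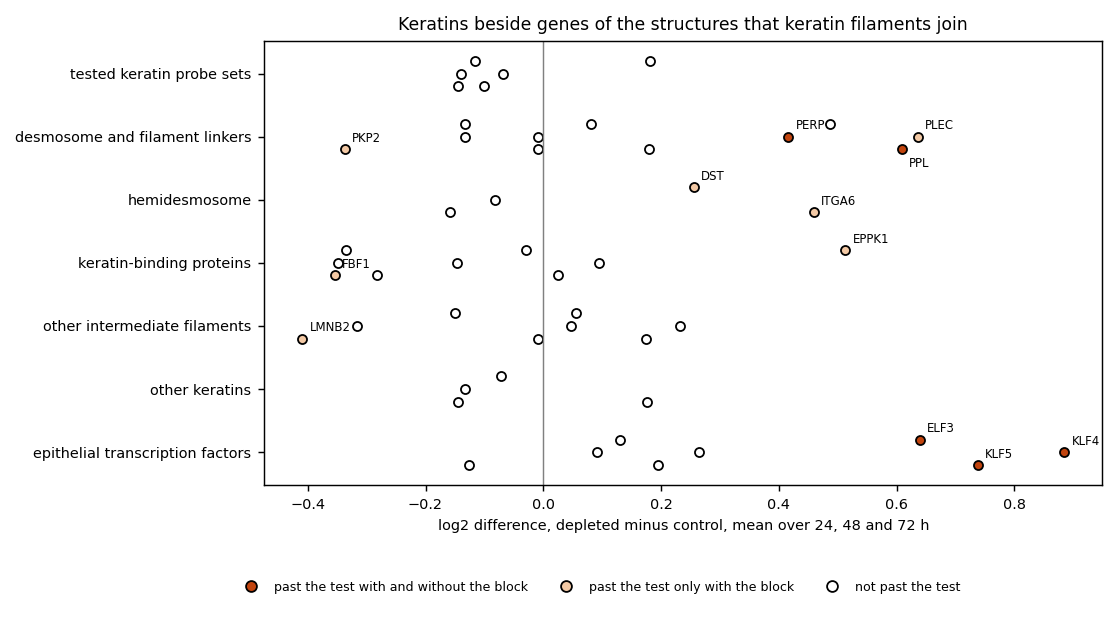
Averaged log2 difference of depleted minus control cells (x axis) for the 6 tested keratin probe sets and for the measured genes of 6 lists (rows), 1 point each, spread vertically for legibility. Filled points passed with and without the replicate block, pale points only with it. The keratins lie between -0.15 and 0.18 with none filled, and PPL, PERP, KLF4, KLF5 and ELF3 are the filled points.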

How the data were processed

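The deposited values were MAS5 signals, linear intensities from the authors with a mean of 100.01 on every array (2% trimmed at each end, computed here). MAS5 is named per the submitters' processing notes and its version not given in the sources used here. On log2(signal + 16), 62 control probe sets were left out and those with a mean at or above the median of 5.15 were kept (27307). All 18 arrays were fitted in limma 3.58.1 (R 4.3.3) with 1 mean per group, and p-values were adjusted over the whole tested table by Benjamini-Hochberg (threshold 0.05). Figures used Python 3.11.15 and matplotlib 3.10.9. Array numbers in the titles run through the 6 groups 3 times. After group means were removed, arrays correlated at 0.302 to 0.602 within these sets and at -0.754 to 0.163 between them, so the sets pair the samples and a replicate block was fitted as well. For lists, the probe set with the highest mean stood for a gene. Named were all member probe sets, list genes past the averaged test with or without the block, and the 2 genes most like each member. Members and lists were chosen with earlier results of these data known. The fit was tested on simulated data. Alternatives were the pseudocount, filter, centring, variance trend, block and left-out arrays or sets. Precision is limited by how few arrays there are.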

Additional observations from a re-analysis of the deposited data

How the results depend on the processing

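The count of keratin probe sets past the test was 0 in all 9 comparisons, and it was recomputed under 32 settings, 288 values in all. It stayed at 0 in every fit that left out 1 array or 1 set (lowest 0, highest 0) and in all others but 1. The exception was the averaged effect with the replicate block and no filter, where it was 1, KRT23 (adjusted p = 0.0488). Only the fits with no filter, with or without the block, tested all 11 keratin probe sets. Every other fit applied the filter, and the keratin probe sets that it removed could not be counted there. Estimates that missed the threshold were given no direction, so a change of their sign was not counted as a reversal. Over all probe sets the averaged count was 1162 (745 higher and 417 lower), 807 (427 and 380) after centring on the 75th percentile, 1055 (615 and 440) after quantile normalization and 4097 (2334 and 1763) with the replicate block. With the block and 75th percentile centring together the balance turned, to 1665 higher and 2193 lower of 3858, and with the block and quantile normalization it was 1951 and 1773. Leaving out set 1 or set 3 lowered it to 52 and 41, and leaving out set 2 to 814; fewer arrays enter those fits. The 24, 48 and 72 h counts were 59, 22 and 1136, and 646, 189 and 3631 with the block. The averaged call of PERP was lost without a filter (adjusted p = 0.0776), after 75th percentile centring (0.0847) and by leaving out 1 array in 14 of 18 cases, and that of KLF5 with a pseudocount of 1 (0.0679), without a filter (0.088), after centring (0.0984) and in 15 of 18. FABP1 lost its call without a filter (0.0531) and in 8 of 18. Of the calls that the block added, PLEC missed the threshold when centring (0.0538), no filter (0.1) or a pseudocount of 1 (0.0916) was added, DST with centring (0.114), quantile normalization (0.0686) or no filter (0.132), and LUM with the same 3 (0.0767, 0.0746 and 0.0843). LMNB2, FBF1 and COL1A1 missed it with no filter (0.0732, 0.0949 and 0.0511). Without the block, COL1A1 passed with a pseudocount of 64 (0.0404) and with a variance trend (0.0447), as PKP2 did (0.0312 and 0.0468). COL1A1 also passed without the block when the depleted 48 h array of set 1 (0.0384) or the control 24 h array of set 3 (0.0472) was left out. The cause was not tested. PPL, KLF4, ELF3 and SI kept their averaged calls in all 18 fits that left out 1 array. With a whole set left out, PPL, KLF4 and SI lost theirs for 2 of the 3 sets and ELF3 for 3 of 3 (adjusted p up to 0.342, 0.147, 0.14 and 0.3). With the replicate block no call was lost among these genes, and beside those printed in the report it added none among the keratins.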
